A study of Mus musculus with 6 samples.

Results

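The genes described here are 10 transcripts of microtubule-associated and neuronal structural proteins, listed by symbol: Map2, Map1a, Map1b, Map4, Mapt, Gap43, Ncam1, Syt1, Stmn1 and Stmn2. They were chosen with earlier results of these data known. All 10 were found by Ensembl identifier among the 46603 genes of the count files. RNA sequencing gave their levels in 3 libraries of mouse embryonic fibroblasts (MEFs) without beta-actin (KO) and in 3 libraries of wild-type MEFs (WT). The cells of both genotypes are labelled BALB/c, from embryos of 10.5 days, and both were kept for 6 days in medium with ascorbic acid, IBMX, dexamethasone and insulin, which drives fibroblasts toward the adipocyte fate. The labels do not say whether the 3 libraries of a genotype came from separate cultures or embryos, so the p-values measure only the spread between these libraries. No library from before induction was analysed here, so differences already present in the lines cannot be told apart from those that arose in this medium.

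Microtubules grow and shrink by gain and loss of tubulin, and the genes described here encode proteins that set this balance or that stand in the neuronal membrane. MAP2, tau (the product of Mapt) and MAP4 share a microtubule-binding repeat domain, MAP2 and tau being enriched in dendrites and axons and MAP4 being the form of dividing and non-neuronal cells. MAP1A and MAP1B are large proteins that are cleaved into heavy and light chains. Stathmins bind free tubulin dimers and favour disassembly. GAP43 is a growth-cone protein, NCAM1 is an adhesion molecule of the immunoglobulin class, and SYT1 is the calcium sensor of synaptic vesicle release.

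The knockout showed in the libraries, with 276, 1988 and 1850 Actb counts in KO replicates 1, 2 and 3 against 60501, 60582 and 53894 in the WT replicates. Library totals ran from 26955708 to 38619711 counts, so that 3 counts, the limit that a count of 0 allows, were 0.0816 to 0.113 CPM (counts scaled to a common library size with TMM factors). KO replicate 1 stood apart, with a median distance over genes of 0.431 log2 from the mean of the other 2 KO libraries, against 0.226 to 0.258 for those 2 and 0.120 to 0.177 in WT. Of 15009 genes with enough counts to test, 2074 were higher and 2181 lower in KO (edgeR quasi-likelihood test, Benjamini-Hochberg adjusted p under 0.05 over all tested genes), or 1351 and 3347 with library totals in place of TMM scaling. Of 11 fibroblast markers 8 were higher in KO and 3 were not called. The surface marker Thy1 was near absent in WT, with 0, 1 and 0 counts, and scarce in KO, with 20, 13 and 17 counts. Col1a2 and Lum, both among the higher markers, were also scarce in WT, with 13, 6 and 9 counts and 5, 2 and 20 counts. Other markers of this list were abundant there, such as Fn1, Vim and Col1a1 with 2109, 605 and 560 CPM in WT. Smooth muscle and myofibroblast markers, with 6 of 7 higher, summed to 107 to 161 CPM in WT and 5278 to 13876 in KO. Most of the KO sum was the actin gene Acta2, with 11481, 6379 and 4120 CPM in KO replicates 1, 2 and 3. The part of this shift in the results below was not tested, and in bulk RNA fewer cells of a type and less RNA per cell cannot be told apart.

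Of the 10 genes, Map2, Map1a, Ncam1, Syt1 and Gap43 rose in KO, Map1b, Map4, Mapt and Stmn1 were not called, and Stmn2 had too few counts for the test. The 5 higher genes of 9 tested stand against 13.8% of all tested genes called higher and 28.3% called in either direction. No tested member was lower, against 14.5% of tested genes, and this count was also 0 at an unadjusted p under 0.05, with DESeq2 and with limma-voom. None of these counts could include Stmn2, which was not among the genes tested there. The count was 1, for Stmn2, with no filter on low counts and without KO replicate 3. In the 5 higher genes every KO library was above every WT library, a pattern that 23.8% of all tested genes showed (49.6% with the groups apart in either direction). Of these, Gap43 passed the filter on low counts only through its KO libraries (14, 18 and 21 counts, against 4, 9 and 7 in WT). Its call was lost in 9 of 14 alternative fits. With a filter at 1 CPM in 3 libraries Gap43 was not tested and 4 members were higher. Stmn2, Map4, Mapt, Map1b and Stmn1 had overlapping groups. The median log2 fold change (KO over WT) of the 9 tested members was 0.80, beside 0.01 over all tested genes. The members were chosen with earlier results of these data known, so neither these shares nor these medians are an independent comparison.

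**Figure D1:**
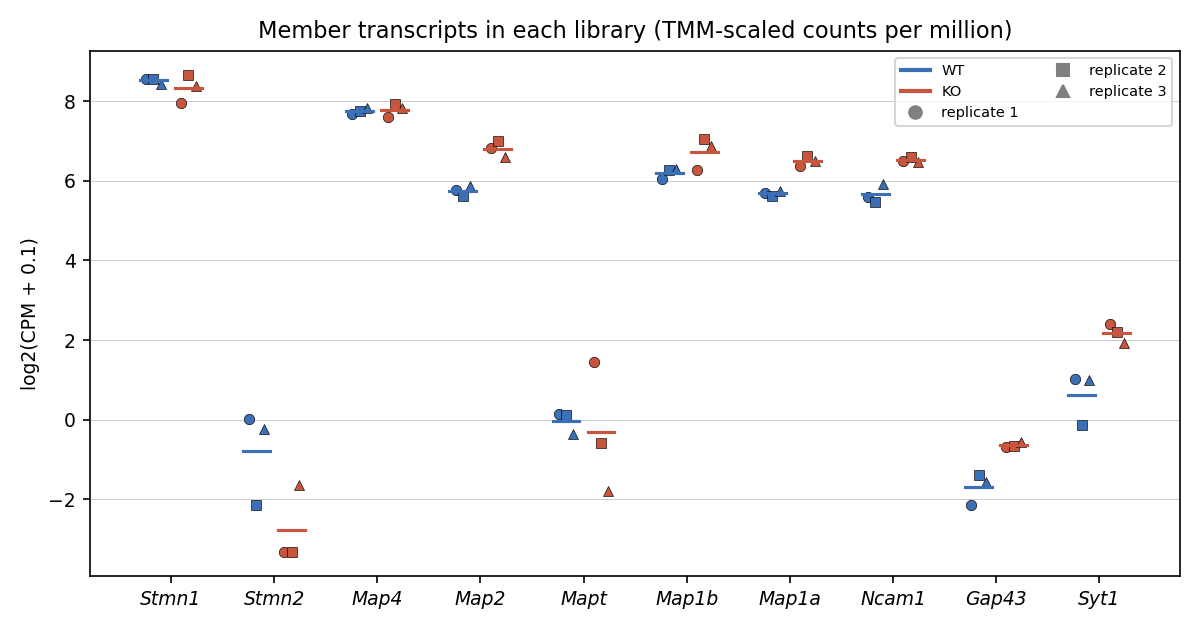
Level of each member in each library, as log2 of CPM + 0.1, with the mean of 3 libraries per genotype as a bar and the replicate number as the symbol. Map2, Map1a, Ncam1, Gap43 and Syt1 lie higher in all KO libraries than in any WT library, while KO replicate 1 is the lowest KO library for Stmn1, Map4 and Map1b and the highest for Mapt.

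Per kilobase of exon the order of the levels was similar in both genotypes. Stmn1 led with 191 ± 8.93 CPM per kb in WT and 172 ± 40.9 in KO (SD, n = 3), followed by Map4 with 14.3 ± 0.735 and 14.7 ± 1.67. Next came Ncam1, with 5.91 ± 0.973 CPM per kb in WT and 10.7 ± 0.483 in KO. Map1b and Map1a, with 4.65 ± 0.415 and 4.25 ± 0.182 CPM per kb in WT, overlapped in range, and Map2 was below both with 3.27 ± 0.286. In KO the ranges of neighbours in the order overlapped from Map1a (7.43 ± 0.699 CPM per kb) to Map1b (6.88 ± 1.81) and from Map1b to Map2 (6.84 ± 0.915). The other members were far lower. Syt1 had 0.185 ± 0.0753 CPM per kb in WT and 0.536 ± 0.0892 in KO, and Gap43, Mapt and Stmn2 were at 0.106 to 0.141 in WT, where the ranges of neighbours in the order overlapped from Syt1 downward. Exon length here is the union over all annotated transcripts, so these levels are understated for genes whose cells use short isoforms.

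In the family with the shared repeat domain, the neuronal member Map2 rose, and Map4 and Mapt did not pass the test. Map2 (ENSMUSG00000015222, chromosome 1, 66175273 to 66442583, GRCm38) had 54.4, 48.9 and 58.2 CPM in WT and 113, 127 and 97.2 CPM in KO replicates 1, 2 and 3. The groups did not overlap, and the KO level was 2.09-fold the WT level (log2 fold change 1.06, SE 0.13, adjusted p = 0.00142). Map4 (ENSMUSG00000032479, chromosome 9, 109931460 to 110083955) had 204, 217 and 227 CPM in WT and 194, 243 and 229 in KO. Its groups overlapped, with KO replicate 1 the lowest of all 6 libraries (log2 fold change 0.04, SE 0.11, adjusted p = 0.831), and the sign of this value turned in 4 of 15 alternative fits. Mapt (ENSMUSG00000018411, chromosome 11, 104231390 to 104332090) was scarce, with 32, 31 and 20 counts in the WT libraries and 70, 19 and 7 in the KO libraries. KO replicate 1 alone lay above WT and the other 2 KO libraries below it (log2 fold change 0.31, SE 1.09, adjusted p = 0.802), and without KO replicate 1 the log2 fold change was -1.24 (adjusted p = 0.069).

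Within a library, the ratio of Map2 plus Mapt to Map4 does not depend on library scaling. On the log2 scale, from counts per kilobase with 1 count added to each gene, it was -1.97, -2.21 and -2.04 in WT and -0.83, -1.04 and -1.35 in KO. It was higher in every KO library, by 1.00 log2 (exact permutation test over libraries, two-sided, p = 0.1, the smallest that 3 against 3 libraries allow). Nearly all of the numerator was Map2, since the 3 WT libraries together held 83 counts of Mapt and 5010 of Map2, and the 3 KO libraries 96 and 10874.

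Both MAP1 genes among the members, Map1a and Map1b, had higher mean levels in KO, and Map1a passed the test. Their relative Map1s, which is not a member, had 39.2 CPM in WT and 36.6 CPM in KO and was not called (log2 fold change -0.096, adjusted p = 0.55). Map1a (ENSMUSG00000027254, chromosome 2, 121289600 to 121310832) had 52.0, 49.4 and 53.9 CPM in WT and 82.1, 99.1 and 90.0 in KO. Its WT libraries lay close together and all KO libraries were above them, 1.75-fold in the fit (log2 fold change 0.80, SE 0.09, adjusted p = 0.00216). Map1b (ENSMUSG00000052727, chromosome 13, 99421446 to 99516540) had 66.1, 77.0 and 77.9 CPM in WT and 77.2, 133 and 117 in KO. KO replicate 1 fell within the WT range and the other 2 KO libraries above it (log2 fold change 0.57, SE 0.25, adjusted p = 0.0704). Map1b passed the test without KO replicate 1 (0.76 log2, adjusted p = 0.000869), with DESeq2 (0.57, adjusted p = 0.0377) and with no filter on low counts (0.55, adjusted p = 0.0499). The log2 ratio of Map1a to Map1b, which are often compared since Map1b comes first in development and Map1a later, was -0.12 ± 0.15 in WT and 0.14 ± 0.28 in KO (SD, n = 3). The groups overlapped (exact permutation test, two-sided, p = 0.3).

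Sequences just before the transcription start, from RefSeq (GRCm38.p6), were found for Map2, Map1a, Map1b, Map4 and Syt1, 5 of the 10 genes. Shown 5′ to 3′ on the gene's strand are those of Map2, Map1a and Syt1, which were higher in KO together, and that of Map1b, the paralogue of Map1a that was not called. They run up to the RefSeq start or to the first annotated exon base. Capitals mark matches, on either strand, to GGGCGG (the GC box, bound by SP1) or TATAAA (the TATA box), and the printed Syt1 stretch holds no complete match.
Map2, chr1:66175079-66175272, plus strand: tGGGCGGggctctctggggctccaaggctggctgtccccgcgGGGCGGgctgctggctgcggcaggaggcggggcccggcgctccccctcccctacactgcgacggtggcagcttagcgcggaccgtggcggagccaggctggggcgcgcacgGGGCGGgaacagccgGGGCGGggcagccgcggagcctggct
Map1a, chr2:121289352-121289599, plus strand: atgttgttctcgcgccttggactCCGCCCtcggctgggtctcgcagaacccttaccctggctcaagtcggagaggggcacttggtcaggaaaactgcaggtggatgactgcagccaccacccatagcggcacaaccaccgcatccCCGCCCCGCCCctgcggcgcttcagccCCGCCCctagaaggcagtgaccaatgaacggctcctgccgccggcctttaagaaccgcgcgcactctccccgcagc
Map1b, chr13:99516603-99516852, minus strand: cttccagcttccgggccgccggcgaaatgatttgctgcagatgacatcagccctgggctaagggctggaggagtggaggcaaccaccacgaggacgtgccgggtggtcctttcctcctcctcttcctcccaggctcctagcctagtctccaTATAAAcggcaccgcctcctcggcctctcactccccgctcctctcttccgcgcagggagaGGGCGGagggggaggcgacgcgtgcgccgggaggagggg
Syt1, chr10:109010983-109011225, minus strand: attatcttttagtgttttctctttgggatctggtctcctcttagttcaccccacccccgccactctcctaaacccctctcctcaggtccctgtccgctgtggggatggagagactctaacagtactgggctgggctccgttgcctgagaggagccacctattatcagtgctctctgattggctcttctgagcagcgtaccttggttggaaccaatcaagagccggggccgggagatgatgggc
In the 250 bases before the start GGGCGG was found 5 times for Map2 and 4 times for Map1a, where matches -105 to -100 and -100 to -95 from the start share a base. It was found 3 times for Map4, which was not called and whose sequence is not shown, once for Map1b, and once for Syt1 at -11 to -6, where the match runs across the end of the printed stretch. Of all 32851 RefSeq promoters 32.7% held this motif in the same window. The Map1b promoter also held TATAAA at -99 to -94, as did 12.4% of all promoters. The CArG box, bound by SRF, was in 1.47% of all promoters, GGAATG, the core bound by TEAD factors, in 12.6%, and TTCAGCACC, part of the element bound by the neuronal repressor REST, in 0.301%. None of these 3 had a match in the windows of the 5 genes. A match is a run of letters, not a measured binding site. GC content of the window was 81.2% for Map2, 66% for Map1a, 66.4% for Map1b, 74% for the first Map4 start and 56.4% for the first Syt1 start.

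**Figure D2:**
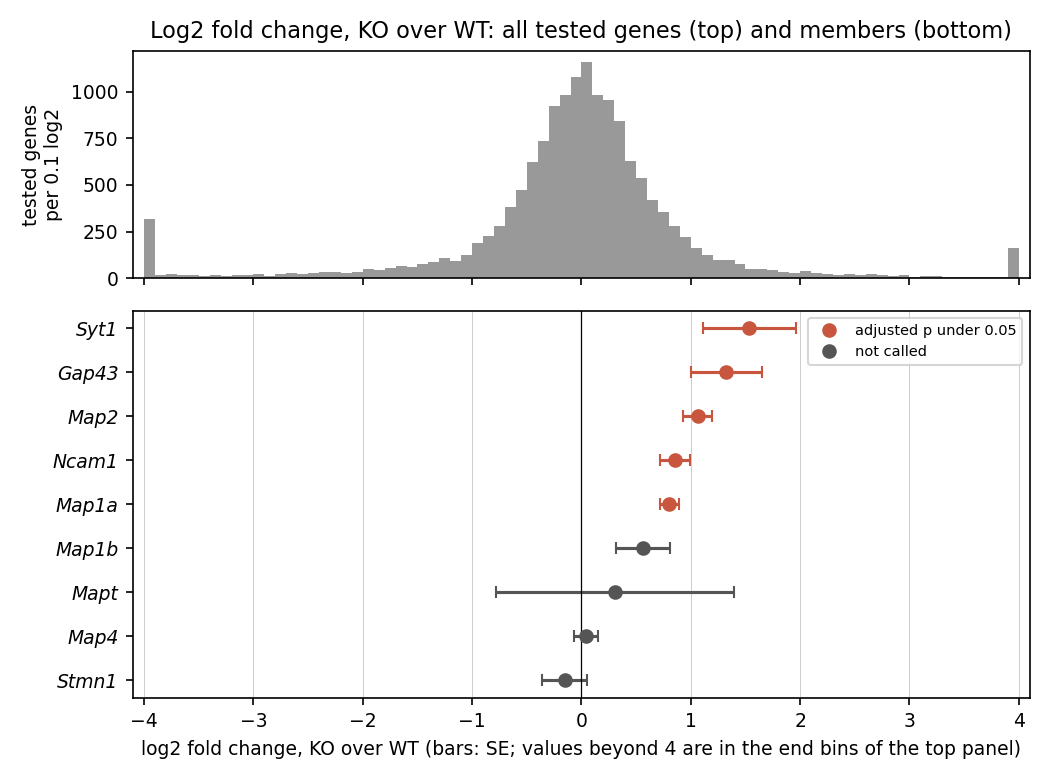
Bottom panel, log2 fold change (KO over WT) of the 9 tested members with its standard error, red where the adjusted p is under 0.05. The top panel counts all tested genes by their log2 fold change in bins of 0.1, with values beyond 4 in the end bins, and the 5 called members lie at 0.80 to 1.53, to the right of the upper quartile of 0.39.

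Neither stathmin was called. Stmn1 (ENSMUSG00000028832, chromosome 4, 134468320 to 134473843), the form made by dividing cells, had 11929, 12089 and 10306 counts in the WT libraries and 6655, 13724 and 12267 in the KO libraries. Scaled by library, this was 368 ± 17.2 CPM in WT and 330.2 ± 78.5 in the KO libraries, with KO replicate 1 the lowest of all 6 libraries and the groups overlapping (log2 fold change -0.15, SE 0.21, adjusted p = 0.552). Stmn2 (ENSMUSG00000027500, chromosome 3, 8509360 to 8561606), a stathmin of growing neurites, had 29, 4 and 22 counts in the WT libraries and 0, 0 and 8 in the KO libraries. WT replicate 2 and KO replicate 3 overlapped in count, and the level was 0.593 ± 0.414 CPM in WT and 0.0725 ± 0.126 in KO. With no filter on low counts its log2 fold change was -2.85 (adjusted p = 0.0466), and without KO replicate 3, where the other KO libraries are at 0, it also passed (adjusted p = 0.0352), but not without WT replicate 2, KO replicate 1 or KO replicate 2 (adjusted p = 0.0769, 0.106 and 0.171). The log2 ratio of Stmn2 to Stmn1 was -10.18, -12.78 and -10.35 in WT and -14.24, -15.29 and -11.96 in KO. The groups overlapped (exact permutation test, two-sided, p = 0.2). The remaining family members were at the edge of detection, with 4 and 0 counts of Stmn3 and 5 and 14 counts of Stmn4 in the WT and KO libraries together.

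Proliferation markers are given beside Stmn1, whose level is known to follow cell division. Of 15 such markers 4 were higher in KO, among them Plk1 (log2 fold change 0.58, adjusted p = 0.0166), Aurka (0.63, adjusted p = 0.0201) and Ccna2 (0.77, adjusted p = 0.0213). Beside this, 13.8% of all tested genes were higher and 14.5% lower. Aurka and Ccna2 lost their calls when WT replicate 1, 2 or 3 was left out, which left 1 higher marker each time, and with library totals Plk1 was not called and 2 markers were higher and 2 lower. The sum of the 15 markers was 3870 to 4235 CPM in WT and 4256 to 4572 CPM in KO. No marker of this list was lower, and this count was also 0 at an unadjusted p under 0.05, with DESeq2 and with limma-voom, but it was 1 without KO replicate 1.

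Among the membrane and growth-cone genes all 3 members were higher in KO. Ncam1 (ENSMUSG00000039542, chromosome 9, 49502136 to 49798925) had 48.5, 44.4 and 60.6 CPM in WT and 91.0, 97.4 and 89.5 CPM in KO. The lowest KO library lay well above the highest WT library, and the fitted difference was 1.81-fold (log2 fold change 0.86, SE 0.14, adjusted p = 0.00387). Syt1 (ENSMUSG00000035864, chromosome 10, 108497650 to 109010982) had 61, 26 and 56 counts in the WT libraries and 138, 153 and 136 in the KO libraries. This was 1.54 ± 0.628 CPM in WT and 4.47 ± 0.744 CPM in KO, with no overlap of the groups (2.90-fold, log2 fold change 1.53, SE 0.43, adjusted p = 0.0179). Gap43 (ENSMUSG00000047261, chromosome 16, 42248442 to 42340651) had 4, 9 and 7 counts in the WT libraries and 14, 18 and 21 in the KO libraries. All KO libraries were above WT at a level of a few reads, 0.215 ± 0.0807 CPM against 0.544 ± 0.0242 CPM (log2 fold change 1.33, SE 0.33, adjusted p = 0.0382). The direction held in all 14 alternative fits that tested Gap43, but its call was lost in 9 of them (highest adjusted p 0.125, without WT replicate 1).

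Map2, Map1a, Ncam1 and Syt1 stayed higher and past the test in all 15 alternative fits. Their log2 fold changes ran from 0.86 to 1.16 for Map2, from 0.61 to 0.87 for Map1a, from 0.65 to 0.99 for Ncam1 and from 1.22 to 1.72 for Syt1. The lowest values for Map2, Map1a and Ncam1 came with library totals, a setting that moved the median of all genes by -0.20 log2.

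**Figure D3:**
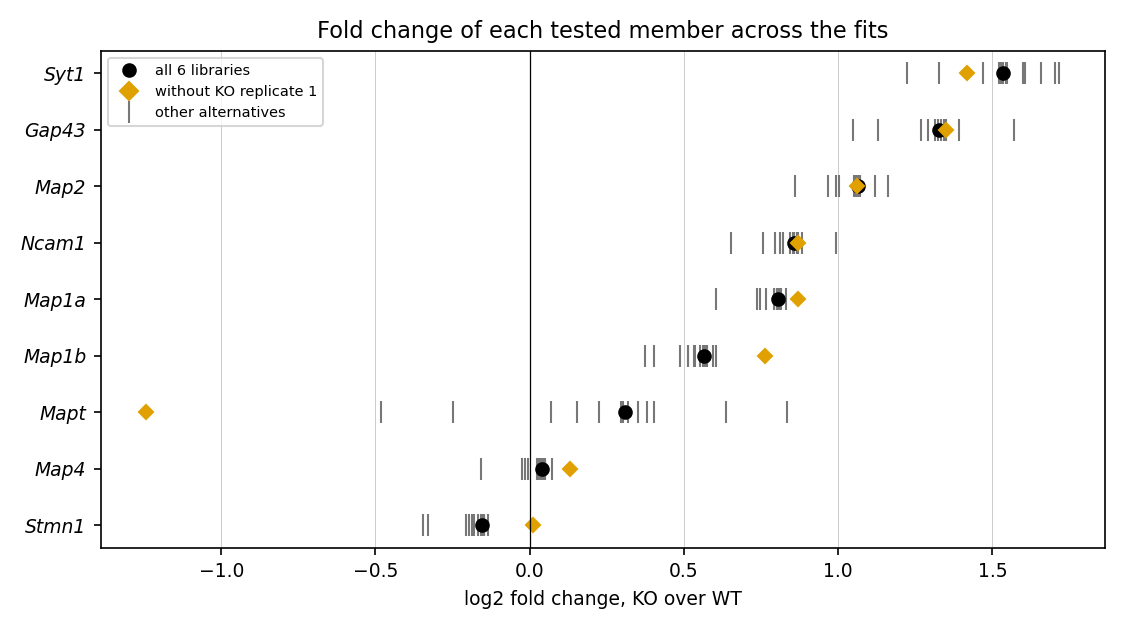
Log2 fold change (KO over WT) of each tested member with all 6 libraries (black point), without KO replicate 1 (yellow diamond) and in the other alternative fits (grey ticks). The values of Map2, Map1a, Ncam1, Syt1 and Gap43 stay above 0 throughout, while leaving out KO replicate 1 moves Mapt to -1.24, Stmn1 to 0.01 and Map1b to 0.76.

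By the root mean square distance between profiles of log2 CPM over the 6 libraries, each centred on its own mean, the genes nearest to Map2 were Hacd1 (distance 0.0579 log2), Plch1 (0.071) and Cep295nl (0.0852). Those nearest to Map1a were Wdr1 (0.0415), Bcar3 (0.0618) and Mtap (0.0628), and those nearest to Ncam1 were Creb3l2 (0.043), Rnf122 (0.0717) and Izumo4 (0.073). These distances describe 6 libraries in 2 groups and carry no test.

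Other genes that act on microtubules went both ways. Of 26 further microtubule-associated and plus-end genes 22 could be tested, of which 3 were higher, 3 lower and 16 not called, with a median of 0.13 log2. Over all tested genes 13.8% were higher and 14.5% lower, so these counts do not set the list apart. The same shares stand beside the counts of the lists below. Mtus1, a microtubule-associated tumour suppressor candidate, had 34.8 ± 4.76 CPM in WT and 137 ± 6.01 CPM in KO, a rise of 1.98 log2 (SE 0.12, adjusted p = 0.000106). Map7, which recruits kinesin to microtubules, fell from 53, 89 and 85 counts in WT to 2, 2 and 3 in the KO libraries (log2 fold change -5.01, adjusted p = 0.000281), and Map6d1, a small relative of the stabilising protein MAP6, fell by 1.63 log2 (adjusted p = 0.00539). Of these, Map7 passed the filter on low counts only through its WT libraries. Map6 itself, with 10.9 ± 1.43 and 12.2 ± 1.72 CPM, was not called (adjusted p = 0.553), and Dcx, the doublecortin of migrating neurons, had 0 counts in all 6 libraries. The higher genes of this list were 6 without KO replicate 1, and 1 without WT replicate 1, 2 or 3 and with library totals.

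Among 11 severing enzymes and MARK kinases, which cut microtubules or release MAPs from them, 1 was higher, 1 lower and 9 not called. Fign, the severing enzyme fidgetin, had 1.07 ± 0.0918 CPM in WT and 3.56 ± 0.443 CPM in KO, a rise of 1.73 log2 (SE 0.12, adjusted p = 0.0024). Mark1 fell by 0.56 log2 (adjusted p = 0.0351) and lost its call in 6 of 15 alternative fits, among them each that left out a library other than KO replicate 1. Without KO replicate 1 this list held 2 higher and 2 lower genes, and with library totals 1 higher and 3 lower. Of 11 kinases and phosphatase subunits that act on tau, 1 was higher, 2 lower and 8 not called, or 0 higher and 4 lower with library totals. The neuronal tau kinase Ttbk1 fell from 344, 403 and 332 counts to 2, 1 and 2 (log2 fold change -7.70, SE 0.32, adjusted p = 2.55e-05). Cdk5r2, an activator of CDK5 in neurons, had 43 counts over the WT libraries and 0 over the KO libraries (adjusted p = 0.00302), which with 3 counts set as the floor of each library is at least 4.91-fold lower. Both lower genes, Ttbk1 and Cdk5r2, passed the filter on low counts only through their WT libraries. The Src-family kinase Fyn rose by 0.43 log2 (adjusted p = 0.0322), with the call lost in 8 of 15 alternatives, among them those without WT replicate 1, 2 or 3 or KO replicate 2, and a value of 0.22 log2 (adjusted p = 0.201) with library totals.

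Among 9 growth-cone genes set beside Gap43, 7 were tested, of which 1 was higher, 2 lower and 4 not called. Basp1, a membrane-bound growth-cone protein related in function to GAP43, had 1197, 1338 and 1019 counts in the WT libraries and 7083, 9788 and 11195 in the KO libraries. Every KO library was far above WT (log2 fold change 2.92, SE 0.10, adjusted p = 2.6e-05), and its KO level was 287 ± 19.4 CPM against 0.544 CPM for Gap43. Dpysl5, a collapsin response mediator, fell by 1.33 log2 (adjusted p = 0.0197) and Nrgn, neurogranin, by 1.41 (adjusted p = 0.0364), and these calls were lost in 4 and 5 of 15 alternatives, each without a single library (WT replicate 1, 2 or 3 or KO replicate 2, and for Nrgn also KO replicate 3). Without KO replicate 1 the higher genes were 3.

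Beside Ncam1, only 3 of 13 other immunoglobulin-class adhesion genes had enough counts, and all 3 were called. Alcam rose by 1.37 log2 (SE 0.32, adjusted p = 0.00706) and the broadly expressed Nptn, neuroplastin, by 0.36 (adjusted p = 0.0366). L1cam, an axonal adhesion molecule, fell by 1.91 log2 (SE 0.61, adjusted p = 0.0331). The call of Nptn was lost in 9 of 15 alternatives, among them each that left out a library other than KO replicate 1. That of L1cam was lost in 4 of 14, with the replicate block and when WT replicate 2 or 3 or KO replicate 3 was left out, and Nptn was 0.16 log2 higher with library totals (adjusted p = 0.298). Ncam2, the closest relative of Ncam1, had 3, 4 and 12 counts in WT and 0 in each KO library. The enzymes that add polysialic acid to NCAM1 were scarce. St8sia2 had 12, 0 and 9 counts in the WT libraries and 11, 50 and 20 in the KO libraries (log2 fold change 1.84, SE 1.60, adjusted p = 0.151) and St8sia4 at most 2 counts in a library.

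Most of the other synaptotagmins that could be tested fell. Of 16 listed, 8 were tested, of which 5 were lower, 1 higher and 2 not called, with a median of -1.91 log2. Of the lower genes, Syt3, Syt7 and Syt14 passed the filter on low counts only through their WT libraries. The count of lower genes and the median therefore partly follow from the filter. Syt7, a slow calcium sensor of membrane repair and exocytosis, fell from 480, 448 and 471 counts in WT to 7, 0 and 11 in the KO libraries (log2 fold change -6.31, SE 1.44, adjusted p = 0.000465). Syt3 fell from 94, 86 and 83 counts to 4, 0 and 6 (log2 fold change -4.72, adjusted p = 0.00164). Syt14 fell from 50, 20 and 31 counts to 0 in each KO library, at least 11.5-fold lower at the same floor (adjusted p = 0.00298). Syt13 and Syt11 fell as well, by 3.23 log2 (adjusted p = 0.00691) and 0.55 log2 (adjusted p = 0.0294). Syt17 rose by 1.39 log2 (SE 0.43, adjusted p = 0.0314), with its call lost in 6 of 15 alternatives. The higher genes numbered 2 without KO replicate 1 and 0 with limma-voom and without WT replicate 1, 2 or 3 or KO replicate 3.

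**Figure D4:**
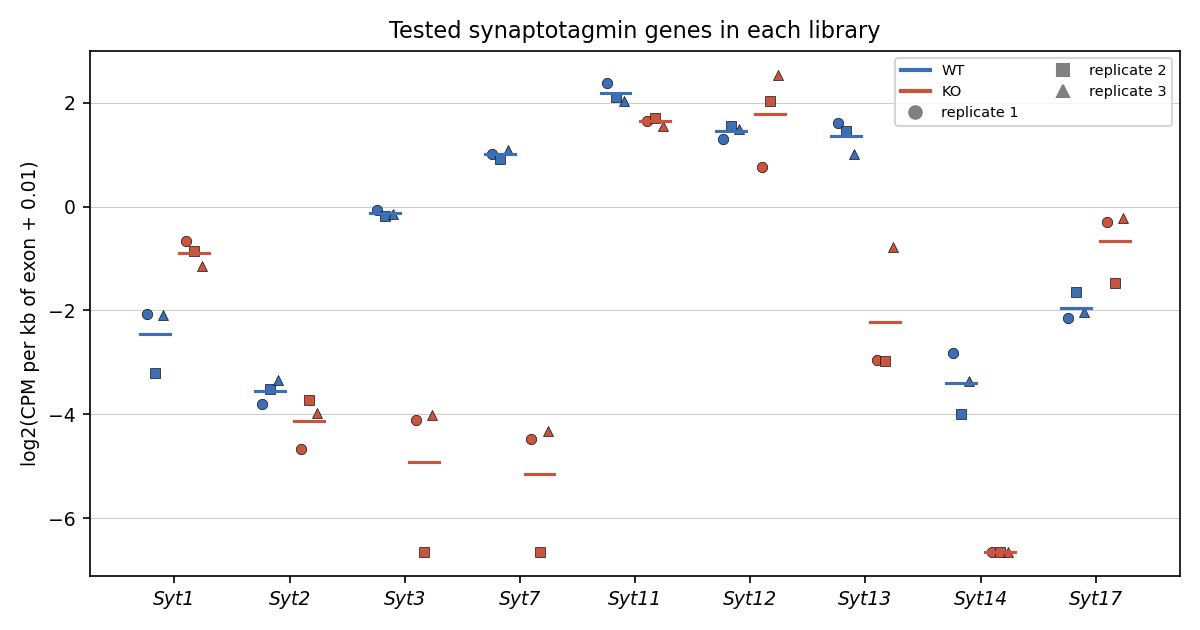
Level of Syt1 and of the 8 other tested synaptotagmins in each library, as log2 of CPM per kb of exon + 0.01, with the mean of 3 libraries per genotype as a bar. Syt1 and Syt17 lie higher in all KO libraries, while Syt3, Syt7, Syt13 and Syt14 lie lower in all KO libraries, with Syt14 at 0 counts there.

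Partners of SYT1 in vesicle release showed no common direction. Of 20 synaptic vesicle and SNARE genes 16 were tested, of which 2 were higher, 2 lower and 12 not called, with a median of 0.02 log2. Over all tested genes 13.8% were higher and 14.5% lower, so these counts do not set this list apart either. Sv2b, a vesicle glycoprotein, had 4 counts over the WT and 76 over the KO libraries (log2 fold change 4.05, SE 0.83, adjusted p = 0.00339), and the general SNARE gene Snap23 rose by 0.67 log2 (adjusted p = 0.00367). Of these, Sv2b passed the filter on low counts only through its KO libraries. Snap25, the neuronal partner of SYT1, had 0 counts in all 6 libraries and Syp, for synaptophysin, at most 8 in a library. The higher genes of this list were 5 without KO replicate 1.

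Most neuronal determinants were at or near 0 in both genotypes, with Tubb3, Uchl1 and Slc17a7 as exceptions. Of 21 neuronal determinants and identity genes 18 had too few counts to test, of which 5, among them Neurod1 and Elavl4, had 0 in all 6 libraries. The highest count of any of the 18 in a library was 31. The sum of the whole list was 23.1 to 32.4 CPM in WT and 18.0 to 23.6 CPM in KO. Slc17a7, a vesicular glutamate transporter, had 177, 182 and 101 counts in the WT libraries and 20, 16 and 12 in the KO libraries, a fall from 4.90 to 0.517 CPM (log2 fold change -3.26, SE 0.42, adjusted p = 0.00111). Uchl1, a deubiquitinase abundant in neurons, had 10.5 ± 2.63 CPM in WT and 6.10 ± 1.35 CPM in KO and was not called (adjusted p = 0.0558). Tubb3, the beta-tubulin isotype used as a neuronal marker, had 395, 402 and 269 counts in the WT libraries and 248, 391 and 645 in the KO libraries and was not called (log2 fold change 0.17, adjusted p = 0.657). No gene of this list was higher, and this count was also 0 at an unadjusted p under 0.05, with DESeq2 and with limma-voom. The lower genes were 4 when low counts were not filtered and when KO replicate 1 was left out. They were 2 when WT replicate 1 or KO replicate 2 or 3 was left out, and with DESeq2, limma-voom, upper-quartile scaling and library totals.

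Glial and muscle cells can also make NCAM1, and their markers were partly present. Of 11 glial and Schwann cell markers 4 were tested, and Ngfr, the low-affinity neurotrophin receptor, fell by 2.93 log2 (SE 0.67, adjusted p = 0.00587). Sox10 had at most 1 count in a library, and the list summed to 13.6 to 16.9 CPM in WT and 10.5 to 18.4 in KO, with 2 lower genes without KO replicate 1. Of 9 myoblast and skeletal muscle markers 2 were tested. Des, for desmin, rose from 16.6 ± 4.03 CPM in WT to 35.6 ± 9.80 CPM in the KO libraries (log2 fold change 1.10, SE 0.30, adjusted p = 0.0151), with its call lost without WT replicate 1 or WT replicate 3. Pax3, a factor of muscle and neural crest precursors, had 14.9 ± 0.214 CPM in WT and 16.9 ± 6.55 CPM in KO and was not called (adjusted p = 0.643). The muscle determinant Myf5 had 0 counts in all 6 libraries, and Myod1 had 0 counts over the WT libraries and 3, 1 and 0 in the KO replicates. That list summed to 27.7 to 36.2 CPM in WT and 42.7 to 71.7 CPM in KO, and its part in the Ncam1 result was not tested.

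Rest, the repressor that keeps neuronal genes silent outside neurons, was not called, with 57.7 ± 1.38 CPM in WT and 56.4 ± 3.47 CPM in the KO libraries (log2 fold change -0.03, SE 0.06, adjusted p = 0.837). Of this gene and 7 corepressor genes only Hdac2, a histone deacetylase, was called, higher by 0.53 log2 (adjusted p = 0.0248), with its call lost in 4 of 15 alternatives, with library totals (0.33 log2, adjusted p = 0.0891) and when WT replicate 2 or 3 or KO replicate 2 was left out. The list held 2 higher genes without KO replicate 1.

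**Figure D5:**
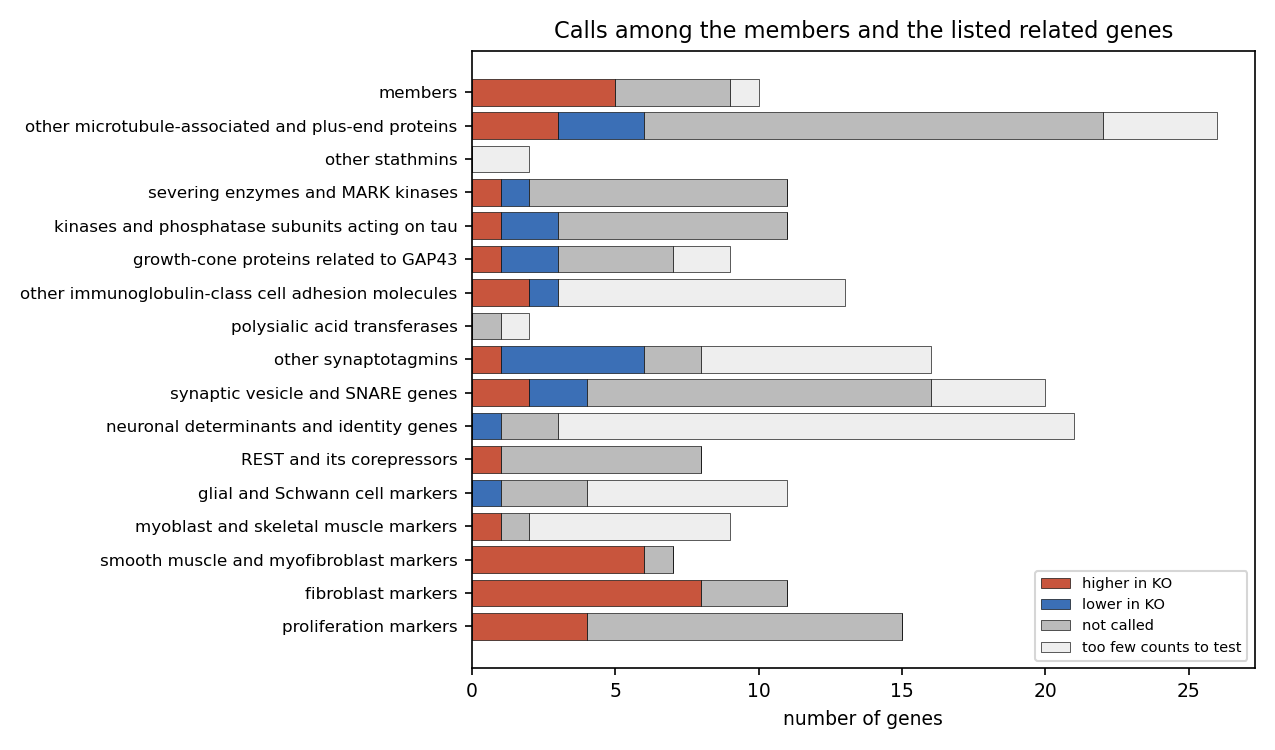
Number of genes higher in KO, lower in KO, not called and too scarce to test, for the 10 members and for each of 16 lists of related genes and markers. The members have 5 higher and none lower, the other synaptotagmins 1 higher and 5 lower, and most neuronal determinants were too scarce to test.

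Some exon bases of these genes are shared with other annotated genes. Exons of other genes covered 4.81% of the exon bases of Ncam1 (the antisense Gm11149), 3.43% of Stmn1, 2.24% of Map1a (Ppip5k1 on the opposite strand) and 0.754% of Map2 (the antisense Gm10558), and 0 bases of the other members. The strand setting of the counting is not given in the sources used here, so reads from these stretches cannot be assigned to a strand.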

How the data were processed

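The TruSeq RNA kit (version 2) was used for the libraries of 3 KO and 3 WT samples, per the labels' protocols. The files hold raw counts per Ensembl gene as deposited by the authors. TopHat2 2.1.0, HTSeq, DESeq2 and the build GRCm38.p4 appear in the submitters' processing notes. Not given in the sources used here are the annotation release, the strand setting and read filters. Symbols, positions and exon lengths came from GENCODE M21 (GRCm38), which held 46091 of 46603 identifiers.

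Counts were filtered with filterByExpr by group, scaled with TMM and tested with edgeR 4.0.16 (quasi-likelihood F test, two-sided, group as the only term) in R 4.3.3, with Benjamini-Hochberg adjustment over 15009 genes. This filter keeps a gene with enough counts in any 3 libraries. A gene near 0 in 1 genotype was therefore tested only where it was high enough in the other. SE was computed from the spread of log2 CPM (pseudocount 0.5) in each group. Alternatives were other scalings (RLE, upper quartile, library totals), DESeq2 1.42.0, limma-voom 3.58.1, no filter, a filter at 1 CPM in 3 libraries, removal of the 10 most abundant genes, a replicate block, and removal of each library in turn. The labels do not pair the libraries, and deviations of equally numbered libraries correlated at -0.089, 0.039 and -0.12 across genes. The members and lists were chosen with earlier results of these data known. The genes named are the 10 members, up to 3 called genes with the smallest p of each list plus 1 in the other direction, and, by likeness of profile, 3 for each of the 3 called members with the smallest p. Other genes were named after their values were seen. Some listed genes are counted but not reported here by name. Counting intervals and floors cover counting error only.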

Additional observations from a re-analysis of the deposited data

How the results depend on the processing

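With library totals in place of TMM scaling, 1351 genes were higher and 3347 lower, 4 members stayed called, and the genes of the 16 lists numbered 23 higher and 27 lower. Leaving out 1 library gave 1003 (without WT replicate 2) to 3075 (without KO replicate 1) higher and 1295 to 3462 lower genes (the same libraries), 4 to 6 higher and 0 to 1 lower members, and 19 to 45 higher genes over the 16 lists (31 with all libraries, with 18 lower, or 13 to 27). The lower member, Stmn2, was tested and called without KO replicate 3 and, as the 1 lower member there, with no filter on low counts. Fits without 1 library have fewer samples. The sign of Map4 turned with upper-quartile scaling (-0.015), library totals (-0.16), without WT replicate 1 (-0.0044) and without KO replicate 2 (-0.026), the last being the lowest value with a library left out (highest 0.13). Mapt turned with limma-voom (-0.48), the replicate block (-0.25) and without KO replicate 1 (-1.24, up to 0.84 without KO replicate 3), and Stmn1 without KO replicate 1 (0.011, down to -0.33 without KO replicate 2). None of these values passed the test, and the cause was not tested. With the replicate number as a block, 1446 genes were higher and 1599 lower, and 4 members were higher, Gap43 losing its call (adjusted p = 0.0922). All 3 ratios kept their direction in each alternative run, from 0.88 to 1.14 for the Map2 plus Mapt over Map4 log2 ratio, 0.10 (without KO replicate 1) to 0.36 for the Map1a over Map1b log2 ratio and -3.66 to -1.996 for the Stmn2 over Stmn1 log2 ratio. Paired, exact sign flips gave p = 0.25 for each, the smallest that 3 pairs allow. The ratio of Stmn2 without an added count could not be computed, since Stmn2 had 0 counts in 2 KO libraries. Depth limits Gap43, Mapt and Stmn2, which had at most 70 counts in a library.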
